A study of Mus musculus with 6 samples.

Results

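A group of early response genes was followed in CD11b+ cells taken from mouse tumors, namely *Ier2*, *Ier3*, *Ier5*, *Ier5l*, *Nr4a1*, *Nr4a2*, *Nr4a3*, *Klf2*, *Klf6* and *Btg2*. They are 10 of the 25701 genes in the count table, each found by its symbol, and all 10 were among the 13485 genes with enough reads to be tested. The genes were chosen with the values of this same comparison known, so their differences between the groups are given as a description and nothing is read from their direction.

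Both groups of mice carried the same alleles, MCT2 loxP/loxP; Cre+ on a C57BL/6 background, with loxP sites around the gene for MCT2 (*Slc16a7*, a lactate and pyruvate transporter) and a tamoxifen-inducible Cre whose promoter is not given in the sources used here. MCT2 KO mice received tamoxifen and MCT2 CO mice its vehicle, so that the drug and the deletion cannot be told apart. Mice were 8 weeks old at induction, which was a course of daily injections over several days. They were injected under the skin of the flank 2 days after that course with TC1 cells, a mouse lung epithelial tumor line. The tumor cells themselves were not edited. After 24 days of growth the tumors were digested with collagenase, and CD11b+ cells were enriched with magnetic beads, labelled as purified macrophages from lung. RNA from 3 libraries per group was sequenced. Nothing in the sources used here says that each library came from 1 mouse, so the spread between libraries may be partly technical.

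Early response genes are switched on within minutes of a stimulus, before any new protein is made, and their transcripts decay quickly. NR4A proteins are orphan nuclear receptors that act as transcription factors without a known ligand, and in macrophages they are induced by growth factors, cyclic AMP and inflammatory signals. KLF2 and KLF6 are zinc finger factors that bind GC-rich DNA, IER proteins are small nuclear or cytoplasmic regulators of survival and stress responses, and BTG2 recruits the CCR4-NOT deadenylase to shorten the poly(A) tails of mRNAs. Tissue digestion is a stimulus that is itself known to induce genes of this class.

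The promoters of the 3 *Nr4a* genes and of *Btg2* are shown because each holds 2 or more copies of TGACG. These letters are the core of the cyclic AMP response element (CRE), at which CREB factors bind. *Klf2*, with 1 copy, is not shown. The promoter of *Ier5l* is shown as that of the gene with the lowest fold change. It holds 0 copies, as do those of *Ier3*, *Ier5* and *Klf6*. Each promoter shown is a RefSeq window on GRCm38.p6 that runs from 250 bases before to 50 bases after the start of transcription. It is printed 5′ to 3′ on the strand of the gene, and capitals mark TGACG or its reverse complement CGTCA. The *Nr4a1* window lies inside the annotated span of the gene. The windows are chr15:101266596-101266895 (+) for *Nr4a1*, chr2:57123954-57124253 (-) for *Nr4a2*, chr4:48045055-48045354 (+) for *Nr4a3*, chr1:134079106-134079405 (-) for *Btg2* and chr2:30474150-30474449 (-) for *Ier5l*.
Nr4a1: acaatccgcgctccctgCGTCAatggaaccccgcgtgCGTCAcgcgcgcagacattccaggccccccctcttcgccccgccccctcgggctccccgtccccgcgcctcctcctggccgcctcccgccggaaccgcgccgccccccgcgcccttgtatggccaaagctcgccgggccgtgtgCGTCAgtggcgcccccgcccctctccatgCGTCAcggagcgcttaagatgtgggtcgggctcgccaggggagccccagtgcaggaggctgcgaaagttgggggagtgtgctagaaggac
Nr4a2: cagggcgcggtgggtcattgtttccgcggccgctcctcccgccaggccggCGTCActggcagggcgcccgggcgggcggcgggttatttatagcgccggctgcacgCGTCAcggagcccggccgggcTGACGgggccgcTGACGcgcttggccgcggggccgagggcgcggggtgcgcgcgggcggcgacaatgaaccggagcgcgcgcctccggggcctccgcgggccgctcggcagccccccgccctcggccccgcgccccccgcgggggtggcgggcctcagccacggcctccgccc
Nr4a3: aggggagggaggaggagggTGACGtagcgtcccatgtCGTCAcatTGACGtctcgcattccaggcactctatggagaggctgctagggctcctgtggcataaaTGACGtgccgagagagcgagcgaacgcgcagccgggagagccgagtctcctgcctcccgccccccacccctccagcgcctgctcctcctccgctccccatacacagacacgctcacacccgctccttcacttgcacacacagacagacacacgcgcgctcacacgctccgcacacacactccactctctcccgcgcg
Btg2: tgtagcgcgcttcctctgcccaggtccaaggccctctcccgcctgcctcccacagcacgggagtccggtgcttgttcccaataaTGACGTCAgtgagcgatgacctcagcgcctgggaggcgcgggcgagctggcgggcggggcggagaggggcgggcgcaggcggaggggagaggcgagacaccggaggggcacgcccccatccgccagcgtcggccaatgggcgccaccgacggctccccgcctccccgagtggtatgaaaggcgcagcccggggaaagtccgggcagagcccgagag
Ier5l: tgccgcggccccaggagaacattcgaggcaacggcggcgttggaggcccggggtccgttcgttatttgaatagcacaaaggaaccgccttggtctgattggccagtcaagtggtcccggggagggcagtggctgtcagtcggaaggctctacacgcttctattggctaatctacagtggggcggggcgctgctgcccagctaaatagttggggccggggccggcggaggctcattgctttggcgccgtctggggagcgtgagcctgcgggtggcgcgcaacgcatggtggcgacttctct

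Each of the 3 *Nr4a* promoters held 4 copies of TGACG, counted on both strands, and 0.231% of the 32851 RefSeq windows of the same length held 4 or more. That minimum is the number these 3 genes hold, so the share only describes them. The windows behind this share and those below were not matched for GC content. In *Nr4a1* the copies began 233, 213, 69 and 40 bases before the start, in *Nr4a2* 200, 144, 123 and 111 bases before it, and in *Nr4a3* 231, 213, 205 and 147 bases before it. In *Btg2* the 2 copies overlapped and formed 1 full palindrome, TGACGTCA, which began 166 bases before the start and was found in 1.79% of all windows. *Klf2* held 1 copy, and *Ier3*, *Ier5*, *Ier5l* and *Klf6* held 0. TGACG was thus in 5 of the 9 promoters with a window, against 20.8% of all windows. *Ier2* was not matched.

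The same 9 windows were searched for other elements on both strands. The GC box GGGCGG was in 9 of 9, against 35.7% of all windows, and the windows were richer in GC (81.7% in *Nr4a2*, 72.3% in *Nr4a1*, 54.0% in *Ier3*) than the median window (52.7%). CCAAT was in 5 of 9 (*Ier3*, *Ier5*, *Ier5l*, *Klf6* and *Btg2*), against 37.4%, and the EGR motif GCGNGGGCG, which can overlap a GC box, in 4 of 9 (*Nr4a1*, *Nr4a2*, *Klf2* and *Btg2*), against 5.55%. NF-kB motifs were matched in *Ier3* and *Nr4a1* (6.93% of all windows), TATAAA in *Nr4a2* (13.6%) and the heat shock motif GAANNTTC in *Ier5l* (7.86%). The CArG box of SRF (1.63%), the AP-1 motif TGANTCA (7.81%) and the NR4A motif AAAGGTCA (1.51%) were in 0 of 9. These are matches of letters in a short window, and factor binding was not measured.

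The libraries held 24863611 to 31713704 counts. *Slc16a7* itself was at 16.0, 11.04 and 11.2 CPM (counts scaled to the TMM-adjusted library total) in MCT2 CO and at 8.22, 4.97 and 5.34 CPM in MCT2 KO. The groups did not overlap, and the log2 fold change was -1.05 (SE 0.236), with an adjusted p of 0.370 by edgeR's quasi-likelihood test and 0.00908 by DESeq2 on all genes. The 12 macrophage and monocyte markers were detected, and their summed level was 5641 to 7447 CPM in MCT2 CO and 6717 to 10490 CPM in MCT2 KO. By log2 fold change 11 of the 12 were above 0 and 1 (*Ly6c2*) below, and 0 had groups that lay apart. Their median was 0.25, or 0.39 without MCT2 KO replicate 2 and 0.17 without MCT2 CO replicate 3. *Itgam*, which encodes CD11b, had 1 count over the 6 libraries, and 99.1% of its exon bases lie inside the span of another listed gene, so it could not serve as a check of the gate. Markers of other cells were present in all libraries, with no marker at 0 throughout. Summed fibroblast markers were at 2053 to 3368 CPM in MCT2 CO and 1735 to 1834 CPM in MCT2 KO, neutrophil markers at 82.1 to 102 and 65.6 to 173 CPM, B cell markers at 87.0 to 103 and 28.1 to 116 CPM, T cell markers at 71.5 to 97.1 and 44.5 to 129 CPM, NK cell markers at 34.8 to 58.2 and 39.2 to 68.7 CPM, endothelial markers at 103 to 110 and 95.5 to 150.3 CPM, and epithelial markers at 13.9 to 20.9 and 18.5 to 33.5 CPM. These sums follow the most abundant markers (*Csf3r* among the neutrophil and *Ighm* among the B cell markers), and scarcer markers lay apart between the groups. Of 6 neutrophil markers tested, 4 had all MCT2 KO values above MCT2 CO (*S100a8*, *S100a9*, *Mmp8* and *Ngp*; median log2 fold change of the 6, 1.19), with *S100a9* at 3.50, 2.58 and 4.18 CPM in MCT2 CO and 20.9, 9.12 and 7.63 CPM in MCT2 KO. Of 7 B cell markers tested, 3 had all MCT2 KO values below MCT2 CO (*Cd79a*, *Ms4a1* and *Igkc*; median of the 7, -0.58, or -1.06 without MCT2 KO replicate 2), and so did 3 of 8 fibroblast markers (*Col3a1*, *Dcn* and *Lum*; median of the 8, -0.58, or -0.17 without MCT2 CO replicate 3) and 3 of 6 NK cell markers (*Ncr1*, *Klrb1c* and *Gzma*; median of the 6, -0.42). Each of these lists also held 1 tested marker of the other sign. Log2 fold changes were 1.12 for *Prf1* (NK cell, 0.86 to 1.49 with each library left out) and 0.53 for *Thy1* (fibroblast, 0.08 to 0.80). They were 0.21 for *Cd22* (B cell, -0.10 to 0.47) and -0.17 for *Cxcr2* (neutrophil, -0.44 to 0.07). Of 9 endothelial markers 7 were above 0 (median 0.33), and 0 had groups that lay apart. Of 10 T cell markers 6 were above 0 and 4 below (median 0.15), and 1 lay apart in each direction. Their median was 0.67 without MCT2 KO replicate 2, and 5 of the 10 were below 0 without MCT2 CO replicate 3. None of these markers passed the adjusted threshold by edgeR, where 0 of all 13485 genes tested passed. That result therefore does not tell the markers from other genes, and their part in the levels of the 10 genes was not tested.

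*Ier5l*, a little studied relative of the IER family, had the lowest fold change of the 10 genes. It was at 10.04, 7.85 and 11.1 CPM in MCT2 CO and at 4.70, 3.81 and 3.33 CPM in MCT2 KO. The 3 MCT2 KO libraries all lay below the 3 MCT2 CO libraries, and the mean was 9.66 ± 1.66 CPM (SD, n = 3) against 3.95 ± 0.691 CPM. The log2 fold change was -1.29 (SE 0.194), the 55th lowest of 13485, and it stayed between -1.42 and -1.18 with each library left out in turn. These values rest on 83 to 301 counts per library, the fewest of the 10 genes.

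*Ier2*, a nuclear protein that takes part in transcription, was at 618, 691 and 694 CPM in MCT2 CO and at 583, 526 and 489 CPM in MCT2 KO. The groups did not overlap, although the highest MCT2 KO library lay close to the lowest MCT2 CO library, and the log2 fold change was -0.33 (SE 0.105). *Ier5*, a partner of heat shock factor 1 and the phosphatase PP2A, was at 330.04, 327 and 328 CPM in MCT2 CO and at 312, 243 and 296 CPM in MCT2 KO. Its MCT2 CO libraries were nearly alike (SD 1.41 CPM) and all lay above MCT2 KO, but the log2 fold change of -0.21 (SE 0.108) came to -0.11 without MCT2 KO replicate 2. *Ier3*, a regulator of survival downstream of NF-kB, was at 364, 417 and 622 CPM in MCT2 CO and at 331, 398 and 322 CPM in MCT2 KO. Here the groups overlapped and MCT2 CO replicate 3 stood above the other 5 libraries, and the log2 fold change of -0.42 (SE 0.197) came to -0.16 without it.

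Among the NR4A receptors, *Nr4a1* (Nur77) was at 658, 749 and 1129.5 CPM in MCT2 CO and at 711, 563 and 591 CPM in MCT2 KO. MCT2 KO replicate 1 lay above MCT2 CO replicate 1, and MCT2 CO replicate 3 stood apart at the top, so that the log2 fold change of -0.44 (SE 0.203) came to -0.18 without that library. *Nr4a2* (Nurr1) was at 72.1, 82.6 and 108 CPM in MCT2 CO and at 75.6, 44.3 and 68.5 CPM in MCT2 KO. Its groups overlapped in the same way, with a log2 fold change of -0.48 (SE 0.216) that ranged from -0.63 to -0.28 with each library left out. *Nr4a3* (NOR1) was at 121, 141 and 129.5 CPM in MCT2 CO and at 167, 55.9 and 86.8 CPM in MCT2 KO. Its spread within MCT2 KO was the widest of the 10 relative to the mean, and there replicate 1 was the highest and replicate 2 the lowest of all 6 libraries. Its log2 fold change of -0.34 (SE 0.336) came to -0.86 without MCT2 KO replicate 1 and to -0.04 without MCT2 KO replicate 2.

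*Klf2*, a factor linked to quiescence of endothelium and leukocytes, was at 47.1, 41.9 and 53.8 CPM in MCT2 CO and at 44.6, 22.5 and 41.7 CPM in MCT2 KO. Replicate 2 of MCT2 KO lay far below the rest while the other MCT2 KO libraries lay near the lowest MCT2 CO values, and the log2 fold change of -0.40 (SE 0.236) came to -0.14 without it. *Klf6*, a widely expressed relative active in macrophage inflammatory responses, was at 909, 844 and 949.75 CPM in MCT2 CO and at 913, 629.85 and 801 CPM in MCT2 KO, with a log2 fold change of -0.21 (SE 0.144). *Btg2* was at 549.51, 577 and 629 CPM in MCT2 CO and at 555, 439.66 and 554 CPM in MCT2 KO, with a log2 fold change of -0.18 (SE 0.120). In both genes the groups overlapped, and without MCT2 KO replicate 2 the log2 fold changes came to -0.07 and -0.08.

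**Figure D1:**
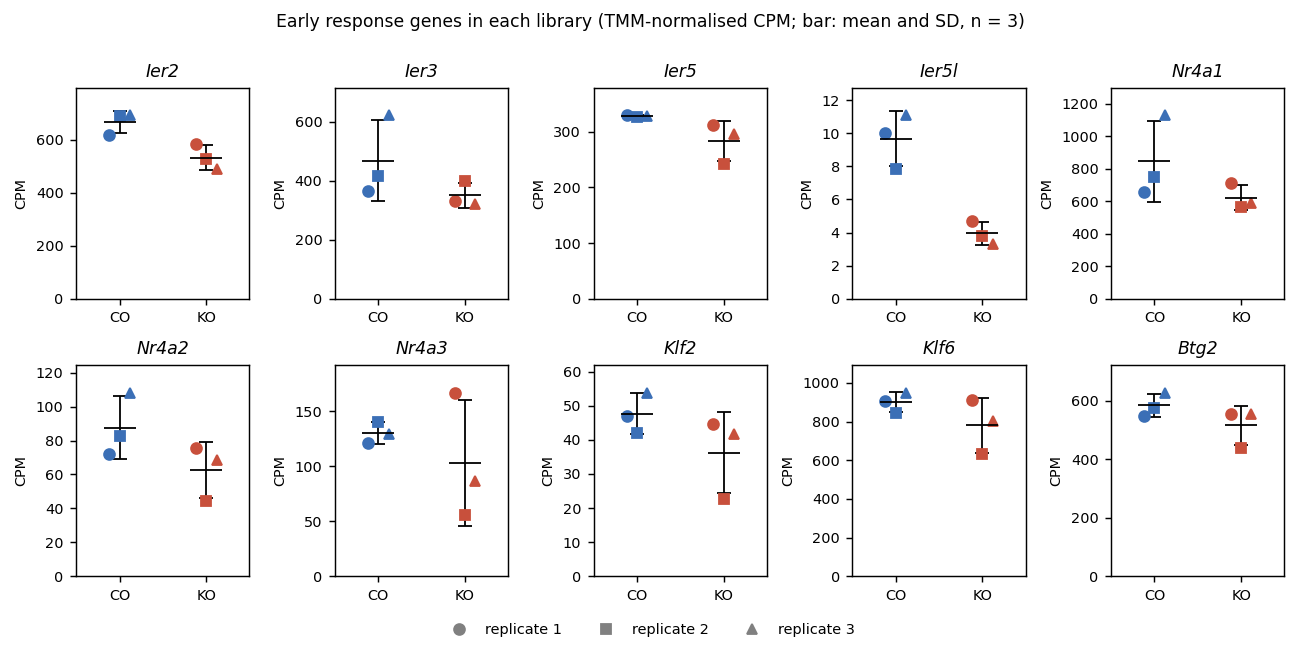
Level of each of the 10 early response genes in each library, in CPM (a panel for each gene, with its own axis). Points are libraries of MCT2 CO and MCT2 KO, and lines give the mean and SD of 3. The groups are apart in *Ier2*, *Ier5* and *Ier5l* and overlap in the other 7 genes.

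None of the 10 genes passed the thresholds (an adjusted p of at most 0.05 and a log2 fold change of at least 0.58 in size) in edgeR's quasi-likelihood test, in which adjusted p ranged from 0.370 to 0.777, and 0% of all genes tested passed them (1264 of 13485 had an unadjusted p under 0.05, and DESeq2 on all genes passed 83). At an unadjusted p under 0.05, 2 genes were lower in MCT2 KO (*Ier2* and *Ier5l*), against 5.6% of all genes tested, and 0 were higher, against 3.77%. That count of 2 depended on the libraries and the tool. It was 7 without MCT2 KO replicate 1, 5 without MCT2 CO replicate 1, 3 without MCT2 KO replicate 2, 1 (*Ier5l*) without MCT2 CO replicate 2 or MCT2 KO replicate 3, and 5 by DESeq2. DESeq2 on all genes passed *Ier5l* alone, with an adjusted p of 1.9e-05, where 0.352% of genes with an adjusted p were lower past both thresholds. In 3 genes every MCT2 KO value was below every MCT2 CO value, against 8.77% of all genes, and in 0 genes every MCT2 KO value was above, against 7.07%. The log2 fold change was below 0 in all 10, which was known when the genes were chosen, against 49.9% of all genes, with a median of -0.37 beside a median of 0.00 for all genes. In whole cell populations of this kind, fewer cells that carry a transcript and less transcript per cell cannot be told apart.

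The libraries were unequal within each group. MCT2 CO replicate 3 was the highest of the 6 libraries for 8 of the 10 genes (all but *Ier5* and *Nr4a3*), and MCT2 KO replicate 2 was the lowest for 7 (*Ier5*, the 3 *Nr4a* genes, *Klf2*, *Klf6* and *Btg2*). MCT2 KO replicate 3 was the lowest for the remaining 3. MCT2 KO replicate 1 was the highest of its group for 9 genes, and its median log2 difference from the MCT2 CO mean was -0.14, against -0.53 in replicate 2 and -0.39 in replicate 3. The 10 genes together took 0.368%, 0.388% and 0.475% of the counts in MCT2 CO and 0.355%, 0.301% and 0.323% in MCT2 KO. Markers of other cells also differed between the libraries, and not only in those that set these extremes. MCT2 CO replicate 3 had the highest summed fibroblast markers (3368 CPM) and the lowest macrophage markers (5641 CPM), and MCT2 KO replicate 2 had the lowest summed B cell (28.1 CPM), T cell (44.5 CPM) and endothelial (95.5 CPM) markers. Its neutrophil sum was also the lowest (65.6 CPM), with *Csf3r* at 41.1 CPM, but its *S100a8*, *S100a9*, *Mmp8* and *Ngp* were above every MCT2 CO library. MCT2 KO replicate 1 had the highest macrophage (10490 CPM), neutrophil (173 CPM) and epithelial (33.5 CPM) sums. MCT2 KO replicate 3 had the highest B cell (116 CPM), T cell (129 CPM), NK cell (68.7 CPM) and endothelial (150.3 CPM) sums. Its fibroblast sum was the lowest (1735 CPM). The part of these markers in the levels of the 10 genes was not tested. Without MCT2 CO replicate 3 the median log2 fold change of the 10 genes was -0.25, and without MCT2 KO replicate 2 it was -0.21.

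**Figure D2:**
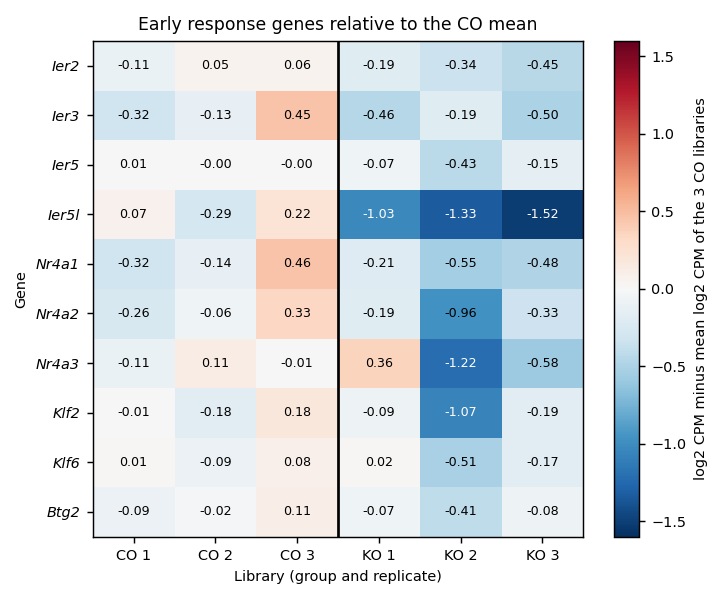
Difference of each early response gene in each library from the mean of MCT2 CO, on the log2 scale (color). Rows are genes and columns are the 6 libraries. The column of MCT2 KO replicate 2 holds the lowest value of 7 genes, with *Nr4a3* at -1.22, *Klf2* at -1.07 and *Nr4a2* at -0.96, and *Ier5l* is at or below -1.03 in each MCT2 KO library.

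**Figure D3:**
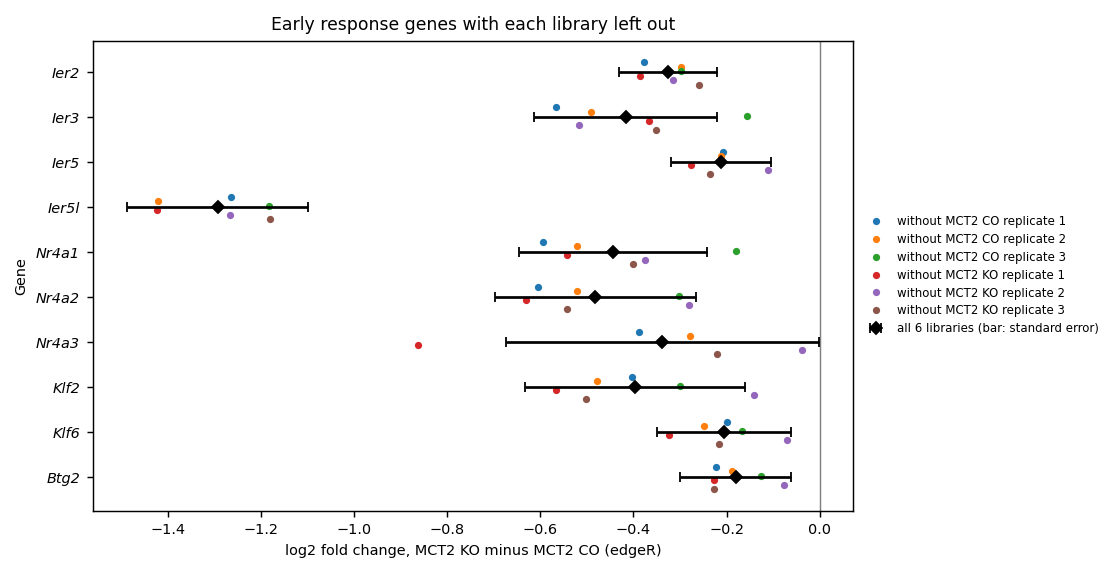
Log2 fold change of MCT2 KO against MCT2 CO for each early response gene with all 6 libraries and with each library left out in turn. Diamonds are the fit of all 6 libraries with bars of 1 SE, and colored points are the fits with a library left out, all of them below 0. The range is narrowest in *Ier2* (-0.39 to -0.26) and widest in *Nr4a3* (-0.86 to -0.04).

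The order of the genes by level was compared only per length, as mean CPM per kb of MCT2 CO. Per kb of the counted span, *Ier2* was highest (438 ± 28.3 CPM per kb, SD, n = 3), followed by *Ier3* (377 ± 110), *Btg2* (148 ± 10.2), *Klf6* (101 ± 6.01), *Ier5* (100.3 ± 0.430), *Nr4a1* (41.2 ± 12.2), *Klf2* (18.2 ± 2.28), *Nr4a2* (5.10 ± 1.08), *Ier5l* (3.60 ± 0.619) and *Nr4a3* (3.16 ± 0.240). The libraries of neighbours in this order overlapped for *Ier2* and *Ier3*, for *Klf6* and *Ier5*, and for *Ier5l* and *Nr4a3*. The span of a gene includes its introns, so the levels of genes with long introns are lower per kb of span than per kb of exon. Whether reads in introns were counted is not given in the sources used here. If they were, levels per kb of exon are too high for such genes. Per kb of exon *Nr4a1* was at 241 ± 71.2 CPM per kb and ranked after *Ier3*. Its libraries overlapped those of *Btg2* and *Klf6*, which also overlapped each other. *Nr4a3* (21.8 ± 1.66) and *Nr4a2* (21.6 ± 4.58) overlapped each other, both also overlapped *Klf2* (25.8 ± 3.24), and *Ier5l* was lowest. The highest gene was 139 times the lowest per kb of span and 122 times per kb of exon. In MCT2 KO, the means per kb of exon of *Btg2* (188 ± 24.2) and *Klf6* (178 ± 32.4) stood before that of *Nr4a1* (177 ± 22.5). The libraries of these genes overlapped in both groups, so their order is not settled in either.

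**Figure D4:**
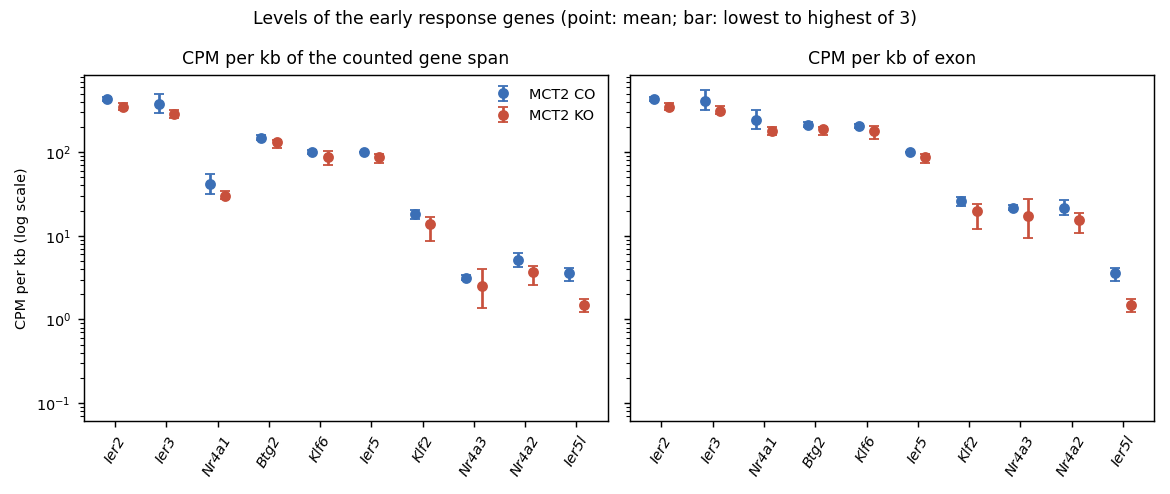
Level of each early response gene in CPM per kb of the counted span and per kb of exon (log axis), in MCT2 CO and MCT2 KO. Points are group means, and bars run from the lowest to the highest library of the group. *Ier2* and *Ier3* are at the top on both scales, and *Nr4a1* moves from 41.2 CPM per kb of span to 241 CPM per kb of exon in MCT2 CO.

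Within the NR4A family, *Nr4a1* gave most of the signal in every library. Per kb of exon it was 83.2%, 83.0% and 87.0% of the sum of the 3 genes in MCT2 CO and 81.3%, 88.8% and 84.3% in MCT2 KO, and these ranges overlapped. The share of *Nr4a3* was 8.96%, 9.13% and 5.84% in MCT2 CO and 11.2%, 5.17% and 7.26% in MCT2 KO. *Klf6* was 7.42 to 8.46 times *Klf2* per kb of exon in MCT2 CO and 8.08 to 11.8 times in MCT2 KO, with the highest ratio in replicate 2.

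The 10 genes lie on 7 chromosomes and differ in structure. *Ier2* (chromosome 8, 84661331 to 84662852, minus strand), *Ier5* (chromosome 1, 155096361 to 155099636, minus) and *Ier5l* (chromosome 2, 30471537 to 30474219, minus) have 1 exon each in GENCODE M21 on GRCm38. *Ier3* (chromosome 17, 35821684 to 35822923, plus) and *Btg2* (chromosome 1, 134075170 to 134079120, minus) have 2, *Klf2* (chromosome 8, 72319033 to 72321656, plus) has 3 and *Klf6* (chromosome 13, 5861482 to 5870394, plus) has 5. *Nr4a1* (chromosome 15, 101254269 to 101274795, plus) and *Nr4a2* (chromosome 2, 57106830 to 57124003, minus) have 10 and *Nr4a3* (chromosome 4, 48045153 to 48086447, plus) has 9, with exons of all transcripts merged. None of the 10 overlaps another gene of the table in its exons.

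Over the 6 libraries each gene was set beside the mean of the other 9, on standardized log2 CPM. Pearson's r was highest for *Nr4a2* (0.96) and *Btg2* (0.91) and lowest for *Nr4a3* (0.78) and *Ier3* (0.49). These points share the group difference that chose the genes, so the coefficients only describe them. The genes outside the 10 whose pattern was most like their mean were *Gse1* (r = 0.998), *Dand5* (0.997), *Chst3* (0.994), *Bbc3* (0.991), *Ihh* (0.990) and *Adora2b* (0.989), picked from all genes tested over the same 6 libraries. *Gse1* was at 81.9, 82.8 and 93.7 CPM in MCT2 CO and 78.3, 63.3 and 71.9 CPM in MCT2 KO, so that it too was highest in MCT2 CO replicate 3 and lowest in MCT2 KO replicate 2. *Bbc3* (PUMA, which promotes apoptosis and is induced by p53) had the same order at its ends, at 37.5, 36.4 and 49.0 CPM against 31.2, 14.98 and 23.9 CPM. *Ihh* was at most at 0.64 CPM, near the limit of detection.

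Genes of the surrounding families were described from 8 lists that hold 126 genes, 120 of them tested. The lists too were chosen with earlier results of these data known. Their counts, here and in the paragraphs below, are therefore a description, and nothing is read from their distance to the share over all genes. In edgeR's quasi-likelihood test 0 of the 120 passed the thresholds in either direction, 30 had an unadjusted p under 0.05 and were lower in MCT2 KO, where 5.6% of all genes did so, and 0 had one and were higher, where 3.77% did. DESeq2 on all genes passed 6 of them, all lower (*Cdkn1c*, *Egr3*, *Egr4*, *Hspa1b*, *Hsph1* and *Klf9*), where 0.352% of all genes were lower past both thresholds. The log2 fold change was below 0 in 85 and above 0 in 35, with a median of -0.12.

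Of the 15 other KLF genes 11 were tested, 8 with an estimate below 0 and 3 above (median -0.14, and -0.06 without MCT2 CO replicate 3). *Klf9*, a factor induced by glucocorticoids, was at 60.8, 60.4 and 127 CPM in MCT2 CO and at 41.55, 45.9 and 41.3 CPM in MCT2 KO. Its groups did not overlap, and its log2 fold change of -0.94 (SE 0.274) came to -0.50 without MCT2 CO replicate 3. *Klf10*, *Klf12* and *Klf16* also had groups that did not overlap, with log2 fold changes of -0.37, -0.32 and -0.39, which came to -0.17, -0.27 and -0.21 without MCT2 CO replicate 3. Of the 12 BTG and CCR4-NOT genes 8 had an estimate below 0 and 4 above (median -0.04), and 6 of 12 were below 0 (median 0.00) without MCT2 KO replicate 2. *Tob1*, which like BTG2 binds the deadenylase, had a log2 fold change of -0.28 (SE 0.105; -0.18 without that library) and *Btg1* of -0.12 (SE 0.140; 0.02 without it). The deadenylase subunit *Cnot8* had one of 0.14 (SE 0.0892), or 0.07 without MCT2 CO replicate 3. *Cnot7* had a log2 fold change of -0.44, but 78.5% of its exon bases lie inside the span of another gene.

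The CREB, CRTC and RXR genes, whose products activate the *Nr4a* genes or pair with NR4A proteins, showed small estimates, with 7 of 10 tested below 0 and a median of -0.08, and 5 of 10 and -0.02 without MCT2 KO replicate 2. The log2 fold changes of *Crebbp* (-0.15), *Ep300* (-0.11), *Atf1* (-0.10) and *Crtc1* (-0.15) were the ones with the lowest p, and *Ep300* came to -0.06 without MCT2 KO replicate 2 and *Crtc1* to -0.02 without MCT2 CO replicate 3. Of the 18 genes for SRF, MEF2, their cofactors and the ERK5 cascade 12 were below 0 and 6 above (median -0.05, and 0.01 without MCT2 KO replicate 2), with *Srf* at -0.15, *Hdac4* and *Hdac7* at -0.23 and *Map3k3* at 0.14. Without MCT2 CO replicate 3 *Srf* came to -0.08, *Hdac7* to -0.15 and *Map3k3* to 0.07, and without MCT2 KO replicate 2 *Hdac4* came to -0.15. In the 7 genes known as KLF2 targets in lymphocytes or endothelium the signs were mixed, with 4 below 0 and 3 above, and the median of -0.17 came to 0.10 without MCT2 CO replicate 3. *Cdkn1c*, a cell cycle inhibitor, was at 4.90 ± 1.77 CPM in MCT2 CO and 2.08 ± 0.657 CPM in MCT2 KO (log2 fold change -1.25, SE 0.329), and *S1pr1*, the receptor for lymphocyte exit, was at 17.9 ± 3.76 and 21.3 ± 2.91 CPM (log2 fold change 0.26, SE 0.169, between 0.14 without MCT2 CO replicate 1 and 0.44 without MCT2 CO replicate 3). The scarcely detected *S1pr4* had a log2 fold change of -0.85.

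Among 41 other immediate early genes 40 were tested, 29 with an estimate below 0 and 11 above (median -0.20), and 13 of them were lower at an unadjusted p under 0.05, against 5.6% of all genes. The transcription factor *Egr4* was at 43.5, 44.5 and 55.9 CPM in MCT2 CO and at 22.0, 18.2 and 14.1 CPM in MCT2 KO, with no overlap and a log2 fold change of -1.41 (SE 0.173; adjusted p = 0.267 by edgeR). Its relative *Egr3* was at 118, 111 and 198 CPM in MCT2 CO and at 78.0, 82.5 and 61.3 CPM in MCT2 KO, again with MCT2 CO replicate 3 at the top (log2 fold change -0.94, SE 0.225). For *Fos* and *Dusp1* the group means lay close together. *Fos* was at 1383 ± 141 CPM in MCT2 CO and 1369 ± 401 CPM in MCT2 KO (SD, n = 3), with a log2 fold change of -0.01 (SE 0.212), and *Dusp1*, a phosphatase that ends MAP kinase signals, had one of 0.09 (SE 0.185). Without MCT2 KO replicate 1 these came to -0.21 and -0.06, and without MCT2 KO replicate 2 to 0.20 and 0.28, so that neither kept its direction. The log2 fold changes of *Egr1* (-0.20, SE 0.150) and *Jun* (-0.40, SE 0.209) were below 0 with overlapping groups, and came to -0.06 without MCT2 CO replicate 3 and to -0.25 without MCT2 KO replicate 2, respectively. *Fosl1* (-0.42) and *Cebpd* (-0.65) had groups that did not overlap, but 57.2% and 48.3% of their exon bases lie inside the span of another gene.

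Of the 12 p53 pathway genes 7 had an estimate below 0 and 5 above (median -0.14), and 10 were below 0 without MCT2 KO replicate 2 and also without MCT2 CO replicate 3. By log2 fold change *Bbc3* was at -0.81 (SE 0.247), *Phlda3* at -0.27, *Gadd45a* at -0.29 (-0.14 without MCT2 CO replicate 3) and *Sesn2* at -0.19 (-0.10 without MCT2 CO replicate 2). The 10 inducible heat shock chaperones all had an estimate below 0 (median -0.43, and 9 of 10 below 0 without MCT2 CO replicate 3), 6 of them with every MCT2 KO value below MCT2 CO, against 8.77% of all genes, and 6 were lower at an unadjusted p under 0.05, against 5.6%. *Hspa1b*, an inducible HSP70, was at 17.6, 23.2 and 22.3 CPM in MCT2 CO and at 5.07, 10.3 and 5.26 CPM in MCT2 KO. The groups lay apart, and the log2 fold change was -1.597 (SE 0.273; adjusted p = 0.370 by edgeR). *Hsph1* (-0.95, SE 0.214) and *Dnaja1* (-0.53, SE 0.0984), co-factors of HSP70, and *Hspa1a* (-0.73, SE 0.216), with 75.0% of its exon bases inside the span of another gene, lay in the same direction.

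**Figure D5:**
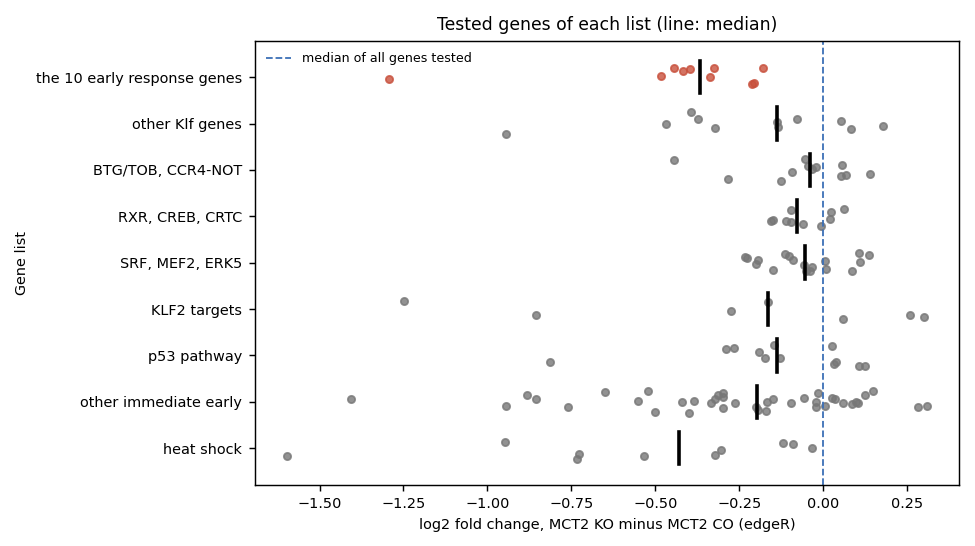
Log2 fold change of MCT2 KO against MCT2 CO for the tested genes of each list, with the 10 early response genes first. Points are genes and the short black lines are medians (-0.37 for the early response genes, -0.43 for the heat shock chaperones, -0.20 for the other immediate early genes and -0.04 for the BTG and CCR4-NOT genes). The dashed line is the median of all genes tested.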

How the data were processed

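RNA was measured in 6 libraries of CD11b+ tumor cells. The authors checked reads with FastQC 0.12.0 and MultiQC 1.28, aligned them with STAR 2.7.11b to GRCm38 and deposited raw gene counts from featureCounts 2.1.1, with the annotation, feature type and strand setting not given in the sources used here. The length of every row equals its whole span, and the row positions differ from GRCm38, so positions and exons were taken from GENCODE M21 by symbol, with promoters from RefSeq. All 25701 rows name a gene by symbol or identifier (3973 have no symbol). Counts were tested with edgeR 4.0.16 in R 4.3.3 (quasi-likelihood test, TMM, expression filter with a minimum count of 10 and a minimum total of 15, Benjamini-Hochberg adjustment over 13485 genes). CPM use TMM library sizes, and log2 values a prior count of 2. SE is the log2 fold change divided by the square root of F. Alternatives were DESeq2 1.42.0, limma-voom 3.58.1, other scalings, no filter, a replicate block and each library left out. The scripts were tested on simulated data. Libraries were grouped by their titles. The 10 genes and all lists were chosen with earlier results of these data known. Genes named were the 10, *Slc16a7*, up to 4 genes per list with the smallest p, 4 well-known early genes and the 6 genes most alike. A gene that this rule would name is not reported here. The libraries held 24863611 to 31713704 counts, and among the 10 genes the counting error at the lowest count was from 0.708% (*Klf6*) to 10.98% (*Ier5l*).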

Additional observations from a re-analysis of the deposited data

How the results depend on the processing

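The log2 fold changes of the 10 early response genes kept their sign in all 13 alternatives (130 results, of which 128 also kept their side of the thresholds and 0 reversed). The other 2 were *Ier5l*, which passed with DESeq2 under either gene filter, so that 1 of the 10 genes passed there. Without each library in turn 0 of the 10 passed. Among all genes 0 passed by edgeR and limma-voom (1264 at an unadjusted p under 0.05 by edgeR), 79 by DESeq2 on the filtered genes, 83 by DESeq2 on unfiltered genes and 2 by edgeR without a filter, and 0 to 2 with each library left out, the 2 being without MCT2 KO replicate 2. Of the listed companion genes 5 and 6 passed by DESeq2 on filtered and unfiltered genes, 1 without a filter (*Egr4*), and 0 to 1 with each library left out (*Hspa1b* without MCT2 KO replicate 2). *Slc16a7* passed by DESeq2, at -1.05 (adjusted p = 0.00952) on filtered and -1.04 (adjusted p = 0.00908) on unfiltered genes, with a range of -1.30 to -0.85 with each library left out. The cause of these differences between tools was not tested. The fold between the highest and lowest level was 139 per kb of span and 122 per kb of exon. The deviations of same-numbered libraries from their group means had r of 0.22, -0.25 and -0.16. Libraries with different numbers had r from -0.21 to 0.29. With 3 libraries per group such a check cannot tell whether the numbers pair them. With the replicate number as a block 0 of the 10 genes and 0 of all genes passed, and *Slc16a7* was at -1.06 (adjusted p = 0.330). Precision was limited by 3 libraries per group, and for *Ier5l* by 83 to 301 counts.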
